A study of Mus musculus with 45 samples.

Results

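The left and right ventricles of the mouse heart were compared after birth, at postnatal day 3 and in adults, over 12 of the 45 microarrays of a heart development series. The arrays were chosen by their labels alone, 6 of left and 6 of right ventricle, and all came from wild-type CD1 mice, with no transgene or treatment named. The groups were day 3 left ventricle, day 3 right ventricle, adult left ventricle and adult right ventricle, with 3 arrays each and 1 heart per replicate. The age of the adults beyond that word and the sex of the mice were not given in the sources used here. Per the labels' protocols, hearts of both stages were frozen and ground before RNA extraction. The series also held left and right ventricles of 4 embryonic stages, E9.5 to E18.5, on 24 arrays, each from pooled hearts, and these served for comparison. The labels called the replicates biological, but did not say whether the left and right sample of the same number came from the same heart.

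The ventricles arise from different progenitors. The left ventricle derives largely from the first heart field, marked by Tbx5 and Hand1, and the right ventricle and outflow tract from the second heart field, marked by Isl1 and Fgf10. Before birth both chambers pump against a similar pressure, and after birth the left ventricle takes on the high-pressure systemic circulation while pressure in the lung circuit drops. Atrial muscle is told from ventricular muscle by Myl7, Myl4 and Sln in place of Myl2, and the walls of both chambers also hold fibroblasts, vessels, epicardium and, at the base, valve tissue.

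Values are log2 expression values after RMA (robust multi-array average), so a difference of 1 is a 2-fold difference, and differences are left minus right. The ventricular light chain gene Myl2 lay between 14.95 and 15.08 on all 12 arrays, near 15.14, the highest value of any probe set on them. So near the top of the scale, a difference in Myl2 could go unseen. Array medians lay between 5.41 and 5.46. The median SD of a gene over 3 arrays was 0.107 and 0.111 in left and right ventricles at day 3, and 0.162 and 0.178 in those of the adult. Xist, the RNA of the inactive X chromosome, was at 10.63 and 10.45 in replicate 2 of the left and right ventricles at day 3, and at 10.25 and 10.79 in replicate 2 of the adult ones. It lay between 5.29 and 6.48 on the other 8 arrays. The Y-linked gene Eif2s3y was at 3.53 and 2.85 in the adult replicates 2, but at 8.26 and 8.03 in those of day 3, against 8.66 to 9.79 on the other 8. High Xist together with Y-linked RNA goes against a single heart per replicate at day 3. Their part in the results was not tested.

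With both stages together and stage as a covariate, no gene was called as different between left and right ventricle. A gene was called where the adjusted p in limma was under 0.05, with Benjamini-Hochberg adjustment over 18193 genes. The count was 0 (0% of genes), and the smallest adjusted p was 0.9996. At an unadjusted p under 0.05, 567 genes (3.12%) passed, 300 of them higher in the left and 267 in the right ventricle. No gene could therefore be reported as called with the same direction at both stages. The same fit on 12 embryonic arrays called 902 genes (4.96%) at E9.5 and E12.5, 484 (2.66%) at E12.5 and E14.5, and 337 (1.85%) at E14.5 and E18.5. The median SE of the difference was 0.0936 after birth, against 0.0746, 0.0791 and 0.0914 for those 3 pairs of stages.

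At the median SE a lone gene needed a difference of about 0.711 to be called, and the 95% interval of 99.5% of genes lay within 1 log2 unit of 0. The size needed was smaller for genes with less spread and larger for those with more. The direction of single genes was no more shared than opposed, since 9035 genes (49.7%) had the same sign at day 3 and in the adult. Left and right arrays did not overlap for 10.7% of genes at day 3 (4.68% higher in the left, 6.05% in the right) and 5.56% in the adult (3.37% and 2.18%). At both stages, 28 genes (0.154%) lay higher in all left ventricles, 23 (0.126%) lay higher in all right ventricles, and 70 changed sides without overlap.

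**Figure D1:**
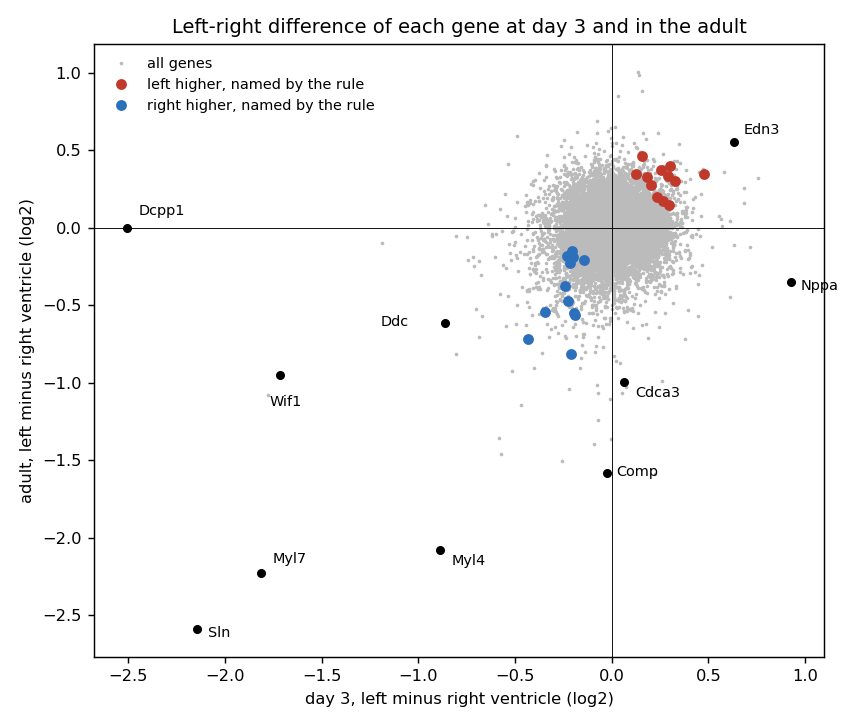
Left minus right difference of each of 18193 genes at day 3 (x axis, log2) and in the adult (y axis, log2), with grey points for all genes. Red and blue points are the 12 uncalled genes per direction with the smallest p among those not overlapping at either stage, and black points are other genes named in the text. Sln, Myl7 and Wif1 stand far into the corner that is higher in the right ventricle at both stages.

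Among the 28 genes that lay higher in all left ventricles, the 12 with the smallest p were small differences of dim genes, none of them called. The largest was that of Tssk3, a kinase gene known from the testis. It had 4.47, 4.28 and 4.42 in left ventricles at day 3, against 3.73, 3.81 and 4.20 in right ones, and 4.29, 4.27 and 4.37 in adult left ventricles against 4.17, 3.60 and 4.11 in right ones. The groups were apart at both stages, by 0.41 on average (SE 0.11, limma adjusted p = 0.9996). The smallest p belonged to Tbx19, a T-box factor of the pituitary, with a difference of 0.31 (SE 0.07, limma adjusted p = 0.9996). Its second, dimmer probe set differed by 0.37 in the adult but by 0.01 at day 3, and that of Tssk3 by 0.13 and -0.005. The others were Zmat4 (0.31), Tdpoz1 (0.31), the sperm channel gene Catsper3 (0.35), the cytochrome P450 gene Cyp2b10 (0.31), the collagenase gene Mmp8 (0.25), C2cd4c (0.24), the peptide hormone gene Insl5 (0.24), the DNA-binding factor gene Arid3b (0.22), Ankub1 (0.22) and the sialyltransferase gene St8sia3 (0.22). Of the 6 of these 12 genes with other probe sets, 2 (Tbx19 and Cyp2b10) had the same direction in all of them at both stages. All 12 had a mean below 6.75, the median of all genes. Before birth 1 of the 12, Mmp8, was called higher in the left ventricle (0.20, limma adjusted p = 0.012), against 2.98% of all genes.

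Of the 23 genes that lay higher in all right ventricles, the smallest p was that of Mdfi, which encodes an inhibitor of MyoD family factors. It had 6.34, 6.33 and 6.28 in left ventricles at day 3, against 6.36, 6.78 and 6.46 in right ones. In the adult it had 4.73, 4.52 and 4.68 in left ventricles, against 5.64, 5.34 and 5.38 in right ones. The gap was narrow at day 3 and wider in the adult, -0.51 in all (SE 0.12, limma adjusted p = 0.9996), and a second, dimmer probe set showed -0.06 and -0.03. Next in p were the lymphocyte receptor gene Slamf1 (-0.31), the exoribonuclease gene Eri2 (-0.35), Emb (-0.44), the autophagy gene Dram1 (-0.38), Cnpy4 (-0.37), the adenosine receptor gene Adora3 (-0.20), Zfp712 (-0.22), the sphingomyelin synthase gene Sgms2 (-0.57), Klrg2 (-0.17), Clca4c-ps (-0.18) and Clrn1 (-0.19). A second probe set of Sgms2, nearly as bright, had the opposite direction at both stages (0.27 and 0.08), and one of Eri2 gave 0.04 at day 3 and -0.13 in the adult. Of the 7 of these 12 genes with other probe sets, 1 (Mdfi) had the same direction in all of them at both stages. None was called, and 10 of the 12 had a mean below 6.75. In the same direction before birth 0 of 12 were called, against 2.96% of all genes.

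Besides the atrial genes, some of the larger right-sided differences were those of signalling and matrix genes also higher in the right ventricle before birth. Differences in the fat cell list (10 genes) reached -1.43, and 0 of its members were called higher on the right before birth. The genes of this paragraph and the next were chosen after their values were seen, and none was called with both stages together. Wif1, which encodes a secreted inhibitor of Wnt ligands, had 6.55, 6.13 and 6.32 in left ventricles at day 3, against 8.04, 8.11 and 7.99 in right ones. In the adult it had 6.69, 8.59 and 9.30 in left ventricles, against 8.61, 10.06 and 8.77 in right ones. The groups were far apart at day 3 and overlapped in the adult, where the left ventricles also differed widely among themselves. The difference of both stages was -1.34 (SE 0.37, 95% interval -2.12 to -0.55, limma adjusted p = 0.9996), a level 2.52-fold higher in the right ventricle. Before birth the right ventricle was higher by a difference of -1.45 (limma adjusted p = 5.6e-07), with -0.24 at E9.5 and between -1.79 and -1.94 from E12.5 to E18.5.

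Bmp2, a ligand of the bone morphogenetic protein pathway, had 5.45, 5.53 and 5.08 in left ventricles at day 3, against 6.09, 6.08 and 6.0 in right ones. In adults it had 5.87, 6.40 and 6.55 on the left, against 6.06, 7.35 and 6.97 on the right, so the groups overlapped there (-0.61, SE 0.18, limma adjusted p = 0.9996). The Wnt amplifier gene Rspo3 (-0.47), the guidance gene Sema3c (-0.37), the hyaluronan synthase gene Has2 (-0.34), the adhesion gene Ntm (-0.42) and the scavenger receptor gene Scara3 (-0.72) had the same direction at both stages. All 6 with Bmp2 were called higher in the right ventricle before birth, over the mean of 4 stages, against 2.96% of all genes. Since they were chosen after their values were seen, this count tests nothing. Bmp2 itself was higher in the left ventricle at E9.5 (0.37) and in the right from E12.5 (-1.39) to E18.5 (-0.90). The shared direction at both stages after birth holds for the probe sets used, not for all. A second probe set of Rspo3 gave 0.21 at day 3 and -0.07 in the adult, that of Has2 0.19 and -0.07, that of Sema3c -0.19 and 0.07, and the other 2 of Ntm -0.75 and -0.14 at day 3 but 0.10 and 0.12 in the adult. On the left side Edn3, the gene of endothelin 3, had 7.76, 7.49 and 8.13 in left ventricles at day 3, against 6.86, 7.14 and 7.49 in right ones, which just touched. In adults it had 8.83, 8.73 and 8.51 on the left, against 8.42, 7.86 and 8.12 on the right, without overlap (0.59, SE 0.13, limma adjusted p = 0.9996). All 3 of its other probe sets were higher in adult left ventricles, by 0.50 to 0.66, while at day 3 they gave 0.02 to 0.21. Before birth Edn3 differed by 0.03 (limma adjusted p = 0.93).

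**Figure D2:**
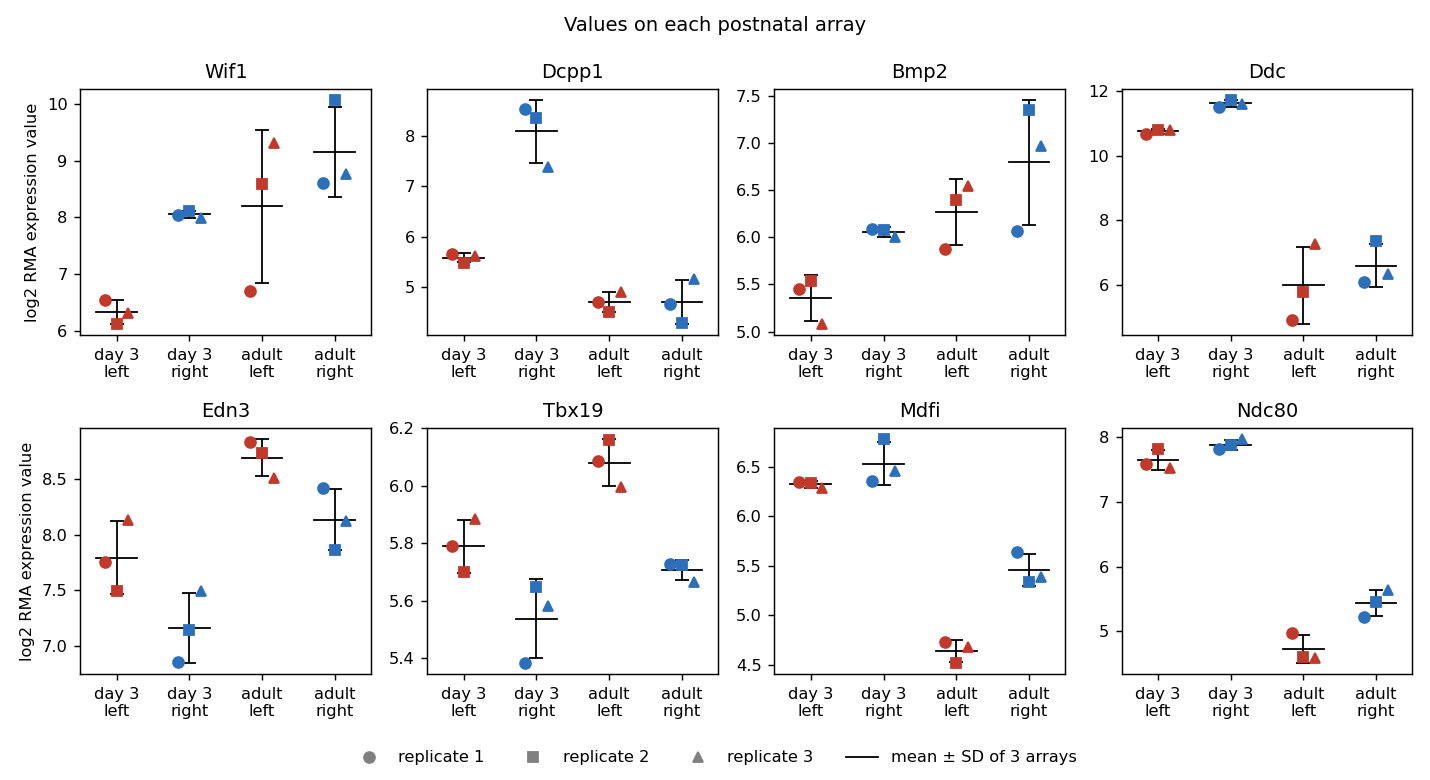
Log2 RMA values of 8 genes on each of the 12 postnatal arrays, left ventricle in red and right in blue, with 1 symbol per replicate number and bars for mean ± SD of 3 arrays. Wif1, Dcpp1, Bmp2 and Ddc separate the ventricles at day 3 only, and Tbx19, Mdfi and Edn3 show the size of the left-right gap in genes whose adult groups did not overlap.

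At day 3 alone, the call rule took 1 gene (0.0055% of genes), and 362 passed an unadjusted p under 0.05. The gene was Dcpp1, known for a secreted protein of salivary glands. It had 5.65, 5.48 and 5.62 in left ventricles, against 8.54, 8.35 and 7.38 in right ones, a wide gap (-2.51, SE 0.27, limma adjusted p = 0.0088). This is a level 5.68-fold higher in the right ventricle. In the adult the groups overlapped, with 4.70, 4.51 and 4.90 on the left and 4.66, 4.29 and 5.15 on the right. The test of the change in the difference from day 3 to the adult gave 2.51 (limma adjusted p = 0.35). Before birth Dcpp1 was higher in the right ventricle by -1.88 at E12.5, -2.91 at E14.5 and -0.63 at E18.5, and differed by 0.24 at E9.5. Leaving out any 1 of 5 of the 6 day 3 arrays, all but right ventricle replicate 3, took the call away, with differences of -2.54 to -2.28 and limma adjusted p of 0.062 to 0.11. Dcpp1 belongs to a family of close copies, and its 1 probe set may not tell them apart.

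When only the 6 day 3 arrays were fitted, 3 genes were called in limma, all higher in the right ventricle: Dcpp1, Wif1 (adjusted p = 7.0e-04) and Ddc (adjusted p = 0.019). Ddc encodes the enzyme that makes dopamine from dopa. It had 10.66, 10.81 and 10.80 in left ventricles at day 3, against 11.52, 11.73 and 11.61 in right ones, without overlap. In the adult it was at 4.91, 5.76 and 7.26 on the left and 6.08, 7.36 and 6.35 on the right, which overlapped. The day 3 difference was -0.86, and those before birth were -0.47 to -0.98 at the 4 stages.

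In the adult alone 0 genes were called (0%), with 682 at an unadjusted p under 0.05 and a smallest limma adjusted p of 0.40. A fit of all 45 arrays as 15 groups shares 1 spread per gene over all groups, and so gives adult ventricles a smaller spread than their own. With both stages averaged, that fit called 5 genes (0.0275%), all higher in the right ventricle: Dcpp1, Wif1, Cnpy4, Ndc80 and Cdca3. The last pair are cell division genes, the first of a kinetochore protein and the other of a mitotic entry factor. Ndc80 had 4.98, 4.61 and 4.60 in adult left ventricles, against 5.23, 5.45 and 5.64 in right ones, and 7.59, 7.82 and 7.53 in left against 7.81, 7.87 and 7.96 in right ventricles at day 3. The adult groups were apart and those of day 3 overlapped slightly. Cdca3 had 5.51, 5.79 and 5.21 in adult left ventricles, against 6.21, 6.93 and 6.35 in right ones, and 10.81, 10.96 and 10.59 in left against 10.81, 10.81 and 10.56 in right ventricles at day 3. Only its adult groups were apart, and its other 2 probe sets, both dimmer, differed by 0.15 and 0.11 in the adult in the opposite direction. Of 30 measured genes of the cell cycle list, 0 were called, and their median difference was -0.06, against 0.0005 over all genes. At both stages 14 were higher in the right ventricle, against 25.7% of all genes, and 4 in the left, against 24.01%. The list mean was 6.32, 6.18 and 6.28 in adult left ventricles, against 6.03, 6.55 and 6.61 in right ones, so right replicate 1 was the lowest. Of the 30 genes, 20 lay below 6.75 on all adult left arrays and 18 on all adult right ones.

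No gene was called for a change of the left-right difference between day 3 and the adult (0%), while 499 had an unadjusted p under 0.05. After Dcpp1, the 9 genes with the smallest p had an adjusted p of 0.9998 in limma each. Those whose difference turned from the right at day 3 to the left in the adult were Hba-a1 (a dim probe set with a mean of 3.87), Sumf2, Hspb9, the bone protein gene Ibsp, Ccdc43, Gpr22, a receptor gene of heart muscle, and Sphkap. Slc36a3 and Agbl4 turned the other way. Gpr22 had 8.17, 8.12 and 7.997 in left ventricles at day 3, against 8.55, 8.29 and 8.32 in right ones, and 9.45, 9.41 and 9.37 in adult left against 9.19, 9.11 and 9.15 in adult right ventricles. The groups were apart in opposite directions at both stages, with a change of 0.55 (limma adjusted p = 0.9998).

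RNA of the atrial genes Myl7, Sln and Myl4 was higher in all right than in all left ventricles at day 3, and in the adult it was highest on single arrays. Myl7, the atrial light chain gene, had 9.43, 9.71 and 8.74 in left ventricles at day 3, against 10.61, 11.16 and 11.56 in right ones. Sln, the atrial inhibitor of the calcium pump, had 5.06, 5.41 and 4.21 on the left and 6.44, 7.21 and 7.47 on the right. The ventricles were apart for both genes, by -1.82 and -2.15. In the adult Myl7 had 5.59, 9.15 and 7.76 in left ventricles, against 6.53, 9.79 and 12.86 in right ones. Sln had 4.17, 6.66 and 4.23 in adult left ventricles, against 4.39, 7.09 and 11.35 in right ones. Adult right ventricle replicate 3 was the highest of the adult arrays for both, followed by replicate 2 of either side, and the groups overlapped. Myl4, the other atrial light chain gene, reached 12.43 in that array, against 5.90 in right ventricle replicate 1. With both stages together Sln differed by -2.37 (SE 0.86) and Myl7 by -2.02 (SE 0.82), each with a limma adjusted p of 0.9996. They were the largest differences of all genes in size.

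Over the list of 16 atrial markers, the mean was 7.68 ± 0.16 in left and 8.07 ± 0.11 in right ventricles at day 3 (SD, n = 3), without overlap. In the adult it was 7.11, 7.72 and 7.52 in left ventricles, against 7.18, 8.05 and 9.07 in right ones. Of the 16, 8 lay higher in all right ventricles at day 3, against 6.05% of all genes, and 0 did so in the adult. The atrial ligand gene Bmp10 lay between 5.41 and 6.11 on all 12 arrays. Without adult right ventricle replicate 3, the adult difference of the list was -0.17 in place of -0.65, and without replicates 2 and 3 it was 0.27. Before birth Myl7 differed by -0.02 at E9.5 and by -0.26 to -0.66 from E12.5 to E18.5. Fewer atrial muscle cells and less of their RNA per cell cannot be told apart in such bulk samples, here and for each gene above.

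Nppa, the natriuretic peptide gene of atria and of stretched ventricles, lay higher in the left ventricles at day 3, unlike Myl7, Sln and Myl4. It had 13.71, 14.10 and 13.95 in left ventricles, against 12.54, 13.09 and 13.35 in right ones, a difference of 0.93 without overlap and without a call. In the adult it had 12.36, 13.76 and 11.62 in left ventricles, against 10.63, 14.28 and 13.87 in right ones. Right ventricle replicate 1 was lowest and replicate 2 highest, and the groups overlapped. The related gene Nppb ranged from 10.90 to 13.999 in adult left and from 11.66 to 13.53 in adult right ventricles.

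Matrix RNA was slightly higher in all right ventricles at day 3, and in the adult it was high on 1 right ventricle array. The mean of 29 fibroblast and matrix markers was 9.64, 10.01 and 9.81 in adult left ventricles, against 9.67, 11.23 and 9.74 in right ones. All 29 were highest in replicate 2 within the adult right ventricles, 11 of them by over 1.5 above the mean of the other replicates. Postn, a matrix protein gene of fibroblasts, had 8.80, 10.14 and 8.87 in adult left ventricles, against 8.44, 12.26 and 9.62 in right ones. The tendon and cartilage gene Comp had 6.20, 8.08 and 6.69 in adult left ventricles, against 6.50, 10.42 and 8.80 in right ones. For both genes replicate 2 was the highest on either side. At day 3 the list stood at 10.62 ± 0.06 in left and 10.71 ± 0.04 in right ventricles (SD, n = 3), a small difference of -0.09 without overlap. There 22 of 29 markers had a higher mean in the right ventricle, and 9 lay higher in all right ventricles, against 6.05% of all genes. In the adult 28 of 29 markers had a higher mean in the right ventricle, but without replicate 2 this was so for 5 of 29, and the adult difference of the list was 0.11 in place of -0.40. The leukocyte list (20 genes) had an adult difference of -0.195, and -0.045 without right replicate 2. For the epicardium list (14 genes) these were -0.297 and -0.029. Its mean was 5.66, 6.71 and 7.14 in adult left ventricles, against 6.68, 7.34 and 6.39 in right ones. Left replicate 1 was the lowest of these and lay 1.26 below the mean of the other left replicates. The valve and tendon list (15 genes) had -0.46, and -0.19 without right replicate 2. Of its members, Comp among them, 5 were highest in replicate 2 within the adult right ventricles and 7 in replicate 3. The fat cell gene Adipoq was also highest in replicate 2 on either side. It had 4.65, 7.42 and 5.71 in adult left and 3.67, 9.40 and 7.92 in adult right ventricles. Of the 10 genes of the fat cell list, 5 were highest in replicate 2 within the adult right ventricles and 4 in replicate 3. In the adult 6 of the 10 lay below 6.75, the median of all genes, on all arrays.

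Without adult right ventricle replicate 2, which was the only array over 1.5 above its group in a cell type list, 0 genes were called, and likewise without replicates 2 and 3 together and with the atrial or the matrix list mean as a covariate. The smallest limma adjusted p in these 4 fits were 0.9999, 0.9991, 0.82 and 0.9999. Of the 12 named genes higher in all right ventricles, Cnpy4, Dram1, Emb, Sgms2, Adora3 and Zfp712 had their highest adult right ventricle value in replicate 2, while Mdfi did not. The share of all genes with that order was not counted, and its part in the results was not tested.

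**Figure D3:**
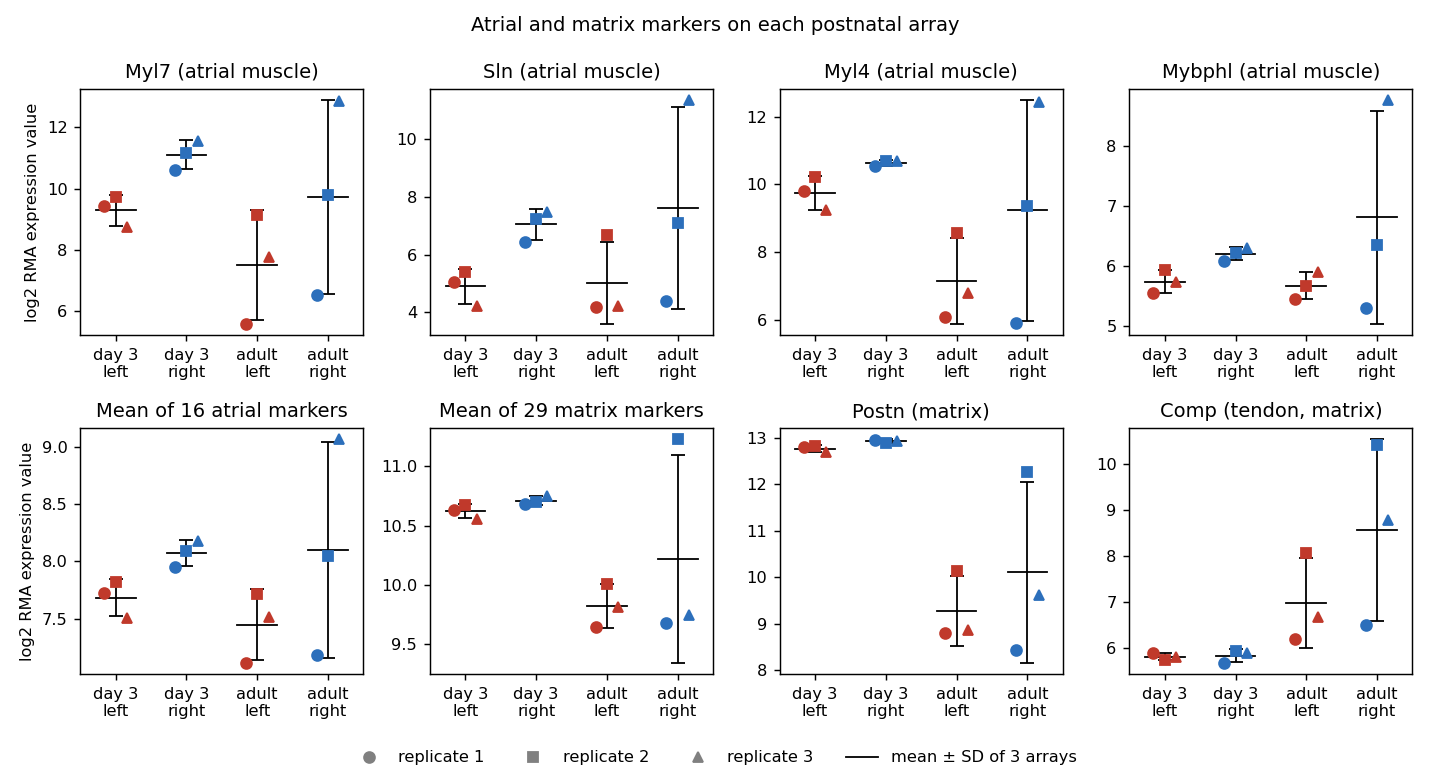
Log2 RMA values of 4 atrial genes (top) and of the atrial list mean, the matrix list mean, Postn and Comp (bottom) on the 12 arrays, left ventricle in red and right in blue, with 1 symbol per replicate number and bars for mean ± SD. Adult right ventricle replicate 3 (triangle) tops the atrial genes, and replicate 2 (square) tops the matrix panels at 11.23 for the list.

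Genes that differed between the ventricles of the embryo had mostly small differences after birth, none of them called. Before birth, over the mean of the 4 embryonic stages, 1080 genes were called (5.94%), 542 higher in the left (2.98%) and 538 in the right ventricle (2.96%). After birth the median difference of the 542 was -0.0035, and 155 of them (28.6%) were higher in the left ventricle at both stages, against 24.01% of all genes. Among the 24 of them with a difference of at least 1 before birth, 14 (58.3%) were, with a median of 0.07 after birth. The median of the 538 was -0.0248, and 199 (37.0%) were higher in the right ventricle at both stages, against 25.7% of all genes. At an unadjusted p under 0.05 in the same direction, the shares were 2.77% of the 542, against 1.65% of all genes, and 6.51% of the 538, against 1.47%. Of the 16 genes with a difference of at least 1 to the right before birth, 5 (31.2%) passed that p, against 3 of the 24 to the left. The share of the 16 that were higher in the right ventricle at both stages was also 5 (31.2%), against 25.7% of all genes. Their median was -0.07 after birth, with -0.155 at day 3 and 0.01 in the adult.

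The test of the change itself, the difference after birth minus that before, called 95 genes (0.522%), 43 with a positive change (0.236%) and 52 with a negative one (0.286%). The test used the fit of 15 groups, whose shared spread is, for a typical gene, smaller than that of the adult ventricles. The p of changes that rest on the adult arrays may therefore be too small. Of the 95, 48 had been called higher in the left ventricle before birth, 41 in the right, and 6 in neither. The absolute difference was smaller after birth for 85 of the 95, with a median of 0.121 after birth and 0.620 before, which the test itself favours. Without 1 array the count ran from 54, without day 3 left ventricle replicate 3, to 202, without adult right ventricle replicate 3. It was 62 without day 3 left ventricle replicate 2, 158 without adult left ventricle replicate 3, and 194 without adult right ventricle replicates 2 and 3. The signal of the 3′ over the 5′ control probe sets of Actb, a measure of RNA integrity, was 0.960 in adult left ventricle replicate 3 and 0.455 in adult right ventricle replicate 3, the extremes of the 12 arrays (log2). The other 10 lay between 0.622 and 0.840. Its part in these counts was not tested.

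Of the genes known from the left ventricle and the first heart field, 4 of 13 measured members were called for a change against the left side, against 0.286% of all genes. Without E9.5 in the mean before birth, Gja5 alone of the 4 was called (limma adjusted p = 0.0089). Cited1, a transcriptional coactivator, had a difference of -0.06 after birth, against 0.88 before (limma adjusted p = 0.0013 for the change). It had 10.32, 10.40 and 10.16 in left ventricles at day 3, against 10.41, 10.41 and 10.20 in right ones. Tbx5, a T-box factor, differed by 0.08 after birth and 0.69 before (limma adjusted p = 0.0038), and the connexin gene Gja5 by -0.03 and 0.89 (limma adjusted p = 0.0029). Gja5 was dim after birth, with a mean of 3.98 over the 12 arrays, and its -0.03 joins -0.29 at day 3 with 0.24 in the adult. Hand1, a basic helix-loop-helix factor, differed by -0.03 after birth and 0.42 before (adjusted p = 0.047). Of the list as a whole, 0 members were called after birth, and 5 had been called higher in the left ventricle before, against 2.98% of all genes.

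In the list of right ventricle and outflow genes, 4 of 15 measured members were called for a change against the right side, against 0.236% of all genes, and 11 of 15 had been called higher in the right ventricle before birth, against 2.96%. Without E9.5, Rgs5 alone of the 4 was called, and the change of Bmp4 was 0.17 in place of 0.82. Isl1, the homeobox factor of the second heart field, had 4.34, 4.29 and 4.47 in left ventricles at day 3, against 4.30, 4.28 and 4.23 in right ones, and lay between 4.20 and 4.95 in the adult. At E9.5 it had 5.23, 4.93 and 4.54 in left ventricles, against 8.195, 7.59 and 7.92 in right ones. The difference was -0.003 after birth and -1.20 before (limma adjusted p = 4e-05). Rgs5, a regulator of G proteins in pericytes, differed by 0.04 after birth and -1.16 before, with levels of 12.49 to 13.25 on all 12 postnatal arrays. Bmp4 differed by -0.27 after birth and -1.09 before (adjusted p = 1.3e-04), and the growth factor gene Fgf10 by 0.0008 and -0.63 (adjusted p = 0.018). Hand2, a factor of the right ventricle, differed by 0.02 after birth and -0.29 before, without a call for the change.

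Other genes with the smallest p for the change included Gtsf1, a gene of small RNA pathways in germ cells, at 0.42 after birth and 2.05 before. Its difference was 1.47 at E18.5, 0.68 at day 3, where left and right arrays were apart, and 0.16 in the adult. The guidance gene Ntn1 differed by 0.14 after birth and 1.34 before, and the Wnt inhibitor gene Dkk1 by -0.01 and -0.72. The differences of Isl1, Dkk1 and Fgf10 were largest at E9.5, and without that stage in the mean the change was no longer called for 12 of 29 named genes, among them Isl1 (0.60, adjusted p = 0.12), Cited1, Tbx5, Bmp4, Dkk1, Fgf10, Hand1 and Rspo3, though 64 genes were called in all. The change of Hand1 or Rspo3 was not called either after leaving out most of the postnatal arrays in turn.

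**Figure D4:**
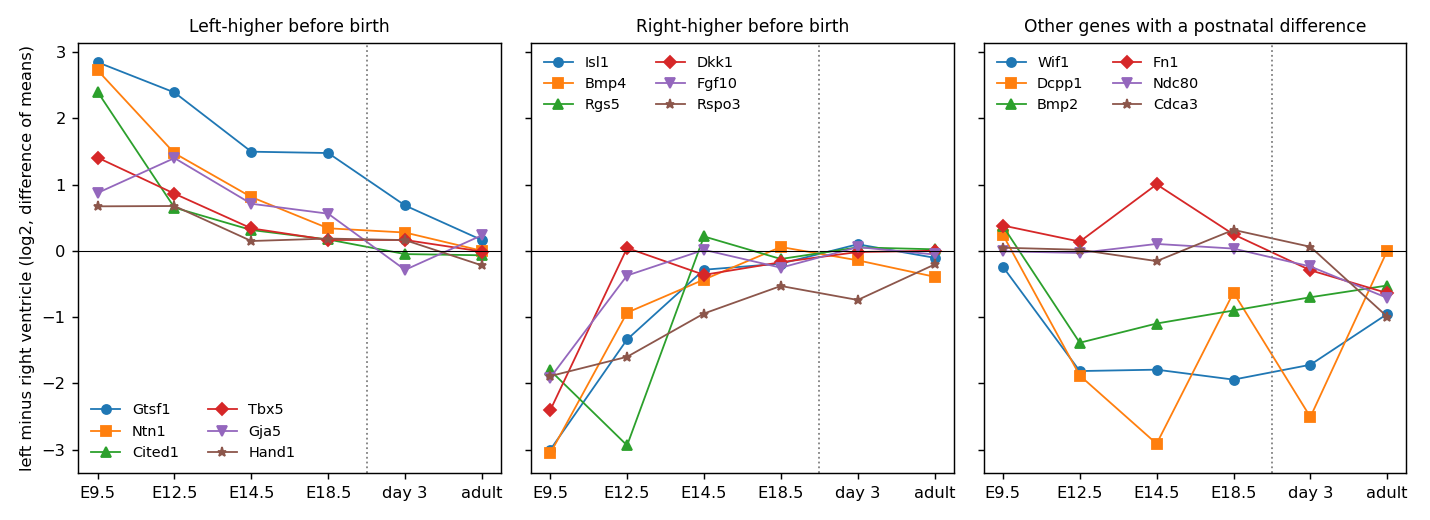
Left minus right difference of group means (y axis, log2) at the 6 stages (x axis) for genes higher in the left ventricle before birth, higher in the right, and others with a difference after birth. The dotted line marks birth, and most lines of the first panel run down towards 0 while Wif1 stays between -1.72 and -1.94 from E12.5 to day 3.

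For 10 of the 95 genes the difference was not smaller after birth. Fn1, the fibronectin gene, had 10.67, 10.79 and 10.69 in left ventricles at day 3, against 10.89, 10.99 and 11.15 in right ones. In the adult it had 8.07, 8.49 and 8.56 on the left, against 8.67, 9.80 and 8.56 on the right, with matrix-rich replicate 2 highest. The ventricles did not overlap at either stage, though barely so in the adult, and the difference was -0.47 after birth and 0.44 before (limma adjusted p = 0.013 for the change), though not called after birth. Besides Ndc80 and Cdca3, the 6 genes without a call before birth were the peroxisomal oxidase gene Acox3, the haptoglobin gene Hp and the transcripts A830082K12Rik and 4933416M06Rik. Wif1 had a difference of -1.34 after birth and -1.45 before, and the change was not called (limma adjusted p = 0.95). Dcpp1 averaged -1.25 after birth and -1.29 before (adjusted p = 0.97), but its mean after birth joins -2.51 at day 3 with 0.0007 in the adult.

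**Figure D5:**
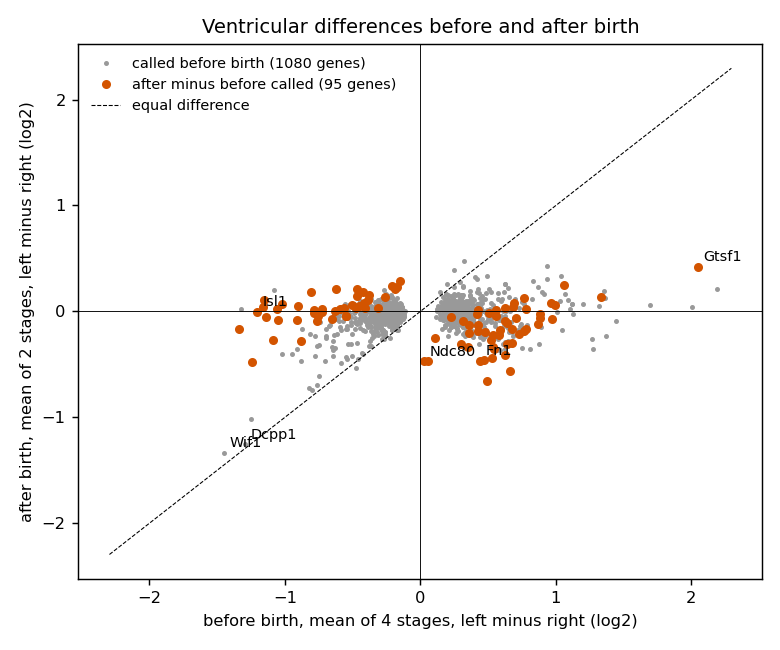
Left minus right difference before birth (x axis, log2, mean of 4 stages) against that after birth (y axis, log2, mean of 2 stages) for 1080 genes called before birth (grey) and 95 genes called for the change (orange). Most points lie along the horizontal zero line, away from the dashed line of equal differences that Wif1 and Dcpp1 lie on.

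None of the 20 pathway lists or the 15 cell type lists held a called member after birth. The median difference was 0.02 for 25 sarcomere and Z-disc genes, 0.03 for 19 calcium-handling genes, 0.0035 for 33 electron transport chain genes and 0.01 for 26 genes of fatty acid use, against 0.0005 for all genes. The sarcomere genes ranged from -0.19 to 0.57, with 10 of 25 higher in the left ventricle at both stages, against 24.01% of all genes, and 1 in the right. At day 3, 4 of the 25 lay higher in all left ventricles, against 4.68% of all genes, and 0 in all right ones. Myh6, the adult heavy chain gene, differed by 0.02, Myh7, the fetal one, by -0.19, and the ventricular factor gene Irx4 by 0.09. Among genes of the Wnt, BMP, Notch and TGF-beta pathways, 18 of 32 were higher in the right ventricle at both stages, against 25.7% of all genes. In the left 3 were, against 24.01%, and the median difference was -0.08. Before birth 10 had been called higher on the right, against 2.96% of all genes, and 4 on the left, against 2.98%. Without adult right ventricle replicate 2, 12 of 32 were higher on the right at both stages, against 23.1% of all genes. Irx2, an Iroquois factor gene, had 7.05, 6.98 and 6.50 in left ventricles at day 3, against 7.75, 7.42 and 7.61 in right ones. The day 3 groups were apart by -0.75, and in the adult they overlapped and differed by -0.06.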

How the data were processed

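Expression was used as deposited, in log2 units, as the authors had it from RMA, per the submitters' processing notes. The RMA version is not given in the sources used here. RMA gives arrays nearly equal distributions and compresses differences near background. Gene names came from the array's GEO annotation, where 34945 of 35890 listed probe sets had 1 gene symbol and 932 several, and 34741 matched mouse RefSeq. This gave 18193 genes. Where a gene had more than 1 probe set (9010 genes), the brightest over 45 arrays stood for it. No 2 arrays held identical values.

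Left minus right was tested two-sided with lmFit and eBayes in limma 3.58.1 (R 4.3.3), with stage as covariate on 12 arrays (9 residual degrees of freedom), per stage and for the change between stages in a fit of 4 groups (8 residual degrees of freedom), and after against before birth in a fit of 15 groups. P-values were adjusted by Benjamini-Hochberg over all genes at a threshold of 0.05. The fit was tested on simulated data. Where replicates share a heart or dissection, p-values measure only the spread between these samples. The number of arrays limits the precision.

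The members, the 35 gene lists and the rules were chosen with earlier results of these data known. Of the 612 list entries 568 were matched. The rule named 12 genes per direction that did not overlap at either stage and had the smallest p, the genes called at 1 stage, the 10 smallest p for the change between stages, and fixed genes, 21 of which were analysed here. Genes named beyond it were chosen after their values were seen, among them those with the smallest p for the change at birth. Alternatives were other fits, variance priors, probe sets, scaling, thresholds, covariates, arrays left out and a replicate block.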

Additional observations from a re-analysis of the deposited data

Results flagged for a closer look

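For 30 named genes the left-right difference after birth differed from that before birth by a test of the change itself (limma, adjusted p under 0.05 over all genes). Each value here is the difference after birth minus that before, in log2 units. The test used the fit of 15 groups, whose shared spread is, for a typical gene, smaller than that of the adult ventricles. In 13 genes the change was positive, towards the left ventricle: Rgs5 (1.198), Plppr5 (0.96), Isl1 (1.201), Bmp4 (0.82), Masp1 (1.26), Dkk1 (0.72), Gabra4 (1.09), Tmem130 (0.79), Nt5e (0.97), Sel1l3 (0.83), Ppp1r17 (0.99), Fgf10 (0.63) and Rspo3 (0.77). In 17 genes it was negative, towards the right ventricle: Gtsf1 (-1.63), Chn2 (-1.05), Ntn1 (-1.20), Fig4 (-0.63), Igfbpl1 (-0.81), Art1 (-0.97), Hnmt (-0.77), Cited1 (-0.94), Dclk3 (-0.94), Arhgef4 (-0.81), Ndc80 (-0.50), Gja5 (-0.91), Sox3 (-0.94), Tbx5 (-0.62), Fn1 (-0.91), Cdca3 (-0.52) and Hand1 (-0.45). The values of these genes were not tested for single arrays far from the others of their group. Only the means of the cell type lists were compared in that way.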

How the results depend on the processing

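With both stages together the count of called genes was 0 in limma under every alternative but 1, single arrays left out included, with a smallest adjusted p of 0.29 without adult left ventricle replicate 3. The exception was the fit of 45 arrays as 15 groups, with 5 genes, 3 of them with the same direction at both stages (Wif1, Cnpy4 and Ndc80). That fit called 3 genes in the adult and 2 for the change between stages (Cdca3 and Dcpp1). The fit of the 6 day 3 arrays called 3 genes at day 3. Leaving out 1 array gave 0 to 1 genes at day 3, 0 to 2 in the adult and 0 to 2 for the change between stages, where Hp and Pon1 were called without adult right ventricle replicate 1. For after against before birth, leaving out 1 array gave 54 to 202 genes, leaving out adult right ventricle replicates 2 and 3 gave 194, and day 3 alone as the stage after birth gave 14. The cause was not tested. Leaving out replicates 2 and 3 together, array weights, day 3 alone, and leaving out E9.5 were chosen after seeing the data. No called result changed sign, but the uncalled adult difference of the matrix list was 0.11 without right ventricle replicate 2, in place of -0.40, and that of the atrial list 0.27 without replicates 2 and 3, in place of -0.65.

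Once group means were subtracted, same-numbered left and right arrays correlated by 0.17, 0.03 and 0.09 at day 3, and 0.22, 0.33 and -0.10 in the adult. Over bright genes the values were 0.40, 0.12 and 0.25 at day 3, each the best match of its array, and 0.26, 0.37 and -0.20 in the adult. There numbers 1 and 2 were also the best match of their arrays over both sets of genes, and number 3 was not. Xist was high in replicate 2 of both sides at both stages. Since adult number 3 did not pass 0.1 over either set of genes, the numbers were not taken to pair the samples. At day 3, and for adult numbers 1 and 2, they may do so. With the replicate block 0 genes were called with both stages together (smallest limma adjusted p 0.64), 1 at day 3, 0 in the adult, 0 for the change between stages and 117 for after against before birth.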
